A study of Mus musculus with 9 samples.

Results

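The globin genes *Hbb-y*, *Hbb-bh1*, *Hbb-bs*, *Hbb-bt*, *Hba-x*, *Hba-a1* and *Hba-a2*, with the erythroid gene *Alas2* beside them, were followed through RNA-seq libraries of E14.5 mouse midbrain. They were taken as the rows of the normalised count table whose Ensembl identifiers carry these symbols in the gene annotation: 8 of 51912 genes in the table, and all 8 were found. The libraries came from dissected midbrains of embryos on C57Bl/6 labelled *Nkx2.9*+/+ (wild type), *Nkx2.9*LacZ/+ (heterozygous) and *Nkx2.9*LacZ/LacZ (knock-out), an allele in which a LacZ cassette replaces the first exon of the homeobox gene *Nkx2.9*. There were 3 libraries for each of the 3 genotypes, and each library pooled 2 midbrains, so a library is not a single embryo. The columns do not show which library of a genotype is which, so libraries are numbered by column: 1, 2 and 3 are labelled LacZ/LacZ, 4, 5 and 6 LacZ/+, and 7, 8 and 9 +/+.

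Haemoglobin is a tetramer of alpha-like and beta-like globin chains, each holding a haem group, and its genes lie in an alpha cluster and a beta cluster whose members are used in turn during development. The first red cells of the mouse embryo, made in the yolk sac, carry the embryonic chains zeta (*Hba-x*), epsilon-y (*Hbb-y*) and beta-h1 (*Hbb-bh1*). The later red cells of the fetal liver carry the adult chains of *Hba-a1*, *Hba-a2* and, in C57BL/6 mice, *Hbb-bs* and *Hbb-bt*. The names embryonic and adult below are those of the chains. The reads do not show from which red cells they came, so a ratio of chains is not a ratio of cells. *Alas2* encodes the erythroid enzyme of the first step of haem synthesis. Blood in the vessels of dissected tissue carries these transcripts, and alpha and adult beta globin have also been described in dopaminergic neurons of the adult midbrain. In such bulk material fewer cells of a type and less globin RNA per cell cannot be told apart.

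The libraries held between 1692963 and 5942192 reads counted on genes, with a median of 4921748. Libraries 7 and 4 were the shallowest, with 1692963 and 2584074 reads, and 1 read was worth 2.59 normalised counts in library 7 against 0.702 in library 8. The targeted gene, *Nkx2-9*, went against the labels. The libraries labelled LacZ/LacZ held 3.01, 5.49 and 2.58 normalised counts (4, 6 and 3 reads), all above the libraries labelled +/+ with 0, 1.40 and 1.47 (0, 2 and 2 reads), so that the labelled knock-out was higher in 9 of 9 pairs of libraries (exact permutation p = 0.1, two-sided, the smallest that 3 against 3 can give). The libraries labelled LacZ/+ held 0, 5.98 and 3.26 (0, 7 and 4 reads) and overlapped both. These are few reads, and the gene-level counts do not show whether they fall in the first exon, which the allele lacks, or in sequence that it keeps. Whether the names LacZ/LacZ and +/+ stand on the right columns is therefore unsettled. The genotypes below are only those of the labels, and which of the 2 was the higher in a comparison is not established by its sign. An exchange of these 2 names would turn every sign of LacZ/LacZ against +/+ and would give the comparisons with LacZ/+ each other's values with the sign turned. Shares and ratios within a library do not depend on the names. The tissue was checked with *En1*, a midbrain and isthmus gene that was present in all 9 libraries, at 157 to 407 normalised counts. The title of the series speaks of cortical material, and the sample labels of midbrain.

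The beta-like genes lie on the minus strand of chromosome 7 (mm10): *Hbb-y* at chr7:103851749-103853216, *Hbb-bh1* at chr7:103841637-103843164, *Hbb-bs* at chr7:103826534-103828096 and *Hbb-bt* at chr7:103812524-103813996. The alpha-like genes lie on the plus strand of chromosome 11: *Hba-x* at chr11:32276400-32278116, *Hba-a1* at chr11:32283511-32284465 and *Hba-a2* at chr11:32296489-32297298. Each of these 7 genes has 3 exons and overlaps no other annotated gene. *Alas2*, at chrX:150547375-150570638 on the plus strand with 11 exons, overlaps *Apex2* and *Mir3620* on the opposite strand, and whether reads were counted by strand was not given in the sources used here.

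How far reads can tell these genes apart follows from their sequences. The coding sequences of *Hbb-bs* and *Hbb-bt*, 441 bases each, differed at 1 base, C417T (*Hbb-bs* base, position from the first base of the start codon, *Hbb-bt* base). Those of *Hba-a1* and *Hba-a2*, 426 bases each, also differed at 1 base, C381T. The stretches around the differing bases, in capitals, are shown because they are all that separates the adult partners within the coding part (GENCODE M21 transcripts, coding positions 402 to 432 and 366 to 396):
Hbb-bs: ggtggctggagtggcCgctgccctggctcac
Hbb-bt: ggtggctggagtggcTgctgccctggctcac
Hba-a1: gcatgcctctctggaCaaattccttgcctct
Hba-a2: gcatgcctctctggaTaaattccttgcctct
The embryonic chains stood much further off, with 74.4% identity between *Hbb-y* and *Hbb-bs*, 76.4% between *Hbb-y* and *Hbb-bh1* and 61.7% between *Hba-x* and *Hba-a1*.

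In windows of 100 bases, the length of a sequenced read, all windows of *Hbb-y*, *Hbb-bh1*, *Hba-x* and *Alas2* were absent from every other annotated globin transcript. Other genes were not searched. The study sequenced fragments from both ends, and these windows take each read alone. What the other end of a fragment adds to telling the genes apart is left out. For *Hbb-bs* 50.3% of windows were its own and for *Hbb-bt* 45.2%, for *Hba-a1* 36.7% and for *Hba-a2* 20.5%. The division of adult reads between *Hbb-bs* and *Hbb-bt*, and between *Hba-a1* and *Hba-a2*, is thus uncertain, and whether reads that match both partners were counted was not given. The sum of each pair does not rest on how such reads were divided, but it lacks them if they were left out. The adult levels would then be too low, the embryonic shares and the embryonic-to-adult ratios below too high, and the alpha-to-beta ratios shifted, since the adult alpha genes share more of their windows than the adult beta genes. The reads counted on each embryonic gene are not touched by this.

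**Figure D1:**
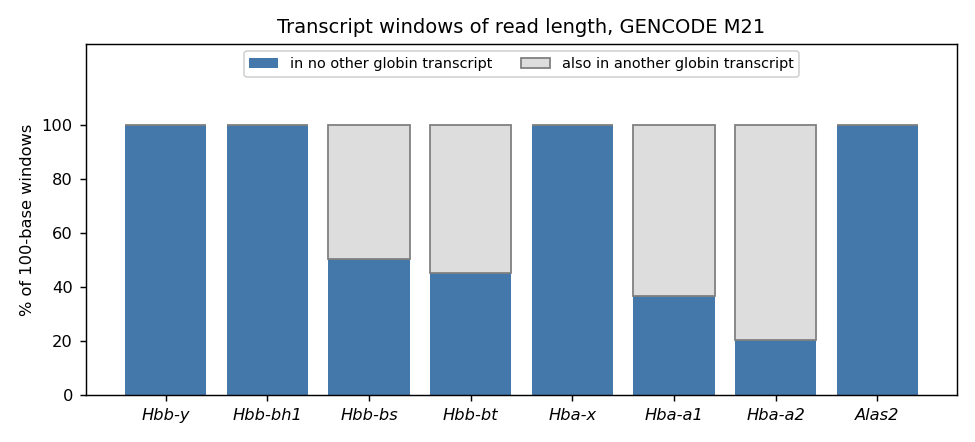
Share of the 100-base windows of each gene's annotated transcripts (bars, % of windows) found in no other annotated globin transcript (blue) or also in another (grey). The embryonic genes and *Alas2* are wholly blue, and *Hba-a2* has the smallest share of its own, 20.5%.

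The promoters of 7 of the 8 genes were matched in the RefSeq set (GRCm38.p6), and *Hbb-bh1* has no entry there. The 120 bases before the RefSeq start are printed for an embryonic and an adult gene of each cluster, since the embryonic and the adult genes are what is compared below. They are *Hbb-y* at chr7:103853208-103853327 (- strand), *Hbb-bs* at chr7:103827929-103828048 (- strand), *Hba-x* at chr11:32276480-32276599 (+ strand) and *Hba-a1* at chr11:32283552-32283671 (+ strand). Capitals mark the letters CACCC and the letters CCAAT, an ATA box spelled ATATAA or else spelled ATAAAA, and a GATA site spelled AGATAA or else spelled TGATAA, all searched on both strands:
Hbb-y: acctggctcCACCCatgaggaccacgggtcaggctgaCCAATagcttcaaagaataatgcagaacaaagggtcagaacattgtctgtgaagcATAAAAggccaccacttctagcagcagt
Hbb-bs: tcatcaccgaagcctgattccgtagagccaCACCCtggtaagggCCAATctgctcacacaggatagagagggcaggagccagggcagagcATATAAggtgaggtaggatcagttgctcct
Hba-x: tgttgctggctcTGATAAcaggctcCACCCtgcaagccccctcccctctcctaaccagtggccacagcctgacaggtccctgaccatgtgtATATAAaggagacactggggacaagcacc
Hba-a1: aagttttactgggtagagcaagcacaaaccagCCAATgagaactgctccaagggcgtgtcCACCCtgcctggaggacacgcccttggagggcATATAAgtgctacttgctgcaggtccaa
CACCC was present in these 120 bases in 7 of the 7 matched genes, against 31.7% of 32851 promoters, and CCAAT in 5 of 7, against 21.3%. An ATA box was present in 7 of 7, against 11.6%, and a GATA site in 2 of 7, against 7.63%. The spelling ATAAAA was added after the *Hbb-y* promoter had been read, and in *Alas2* the ATA box letters lie on the opposite strand and overlap its GATA site. *Hbb-y* had ATAAAA at -28 to -23 from its start, where *Hbb-bs* had ATATAA at -30 to -25, *Hba-x* at -29 to -24 and *Hba-a1* at -28 to -23. The promoters of *Hba-a1* and *Hba-a2* are near copies and are not separate cases.

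All 7 globin genes and *Alas2* had reads, at very different levels. Per kilobase of exon, *Hba-a1* stood highest with 669 ± 118 normalised counts (SD, n = 9 libraries), followed by *Hbb-y* with 537 ± 126, *Hbb-bs* with 525 ± 152 and *Hbb-bt* with 337 ± 119. *Hba-a2* followed with 212 ± 39.2, *Hba-x* with 56.8 ± 12.7, *Alas2* with 19.0 ± 2.72 and *Hbb-bh1* with 5.75 ± 5.52. The ranges of neighbours in this order did not overlap between *Hba-a2* and *Hba-x* or between *Hba-x* and *Alas2*, and overlapped for the other neighbours. *Hba-a1* was above *Hbb-y* in 7 of 9 libraries, and *Hbb-y* above *Hbb-bs* in 5 of 9, so that the embryonic *Hbb-y* and the adult *Hbb-bs* had no fixed order. The 7 globins together took 0.0342% to 0.0526% of all counted reads.

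*Hbb-y*, the epsilon-y chain, had 360, 410 and 447 normalised counts in libraries 1, 2 and 3, labelled LacZ/LacZ. It had 350, 215 and 365 in libraries 4, 5 and 6, labelled LacZ/+, and 390.5, 304 and 220 in libraries 7, 8 and 9, labelled +/+. The values labelled LacZ/LacZ lay in the upper part of the range, and library 7 of +/+ lay above library 1. *Hbb-bh1*, the beta-h1 chain, was near the limit of detection with 28 reads in all: 6, 6 and 6 in LacZ/LacZ, 2, 0 and 0 in LacZ/+, and 4, 0 and 4 in +/+. These are 5.05 ± 0.494 normalised counts in LacZ/LacZ, 1.09 ± 1.88 in LacZ/+ and 4.43 ± 5.33 in +/+ (SD, n = 3 each).

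*Hbb-bs*, an adult beta chain, had 422, 271 and 271 normalised counts in libraries 1 to 3 (labelled LacZ/LacZ), 554, 359 and 399 in libraries 4 to 6 (labelled LacZ/+), and 522, 283 and 544 in libraries 7 to 9 (labelled +/+). *Hbb-bt*, the other adult beta chain, had 282, 156 and 121 in LacZ/LacZ, 300, 222 and 274 in LacZ/+, and 393, 178 and 206 in +/+. For both genes libraries 2 and 3 were the lowest and library 8 of +/+ came next. The values of the labelled genotypes overlapped.

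*Hba-x*, the zeta chain, had 54.2, 44.8 and 60.1 normalised counts in LacZ/LacZ, 79.9, 39.3 and 56.3 in LacZ/+, and 51.7, 44.2 and 49.3 in +/+. *Hba-a1*, an adult alpha chain, had 591, 498 and 432 in LacZ/LacZ, 730, 582 and 521 in LacZ/+, and 615, 470 and 446 in +/+. *Hba-a2*, its near copy, had 114, 114 and 156 in LacZ/LacZ, 197, 137 and 152 in LacZ/+, and 129, 148 and 124 in +/+. Library 4 was the highest for all 3 alpha-like genes, and it is one of the 2 shallowest. *Alas2* had 53.4, 42.1 and 43.8 in LacZ/LacZ, 34.2, 38.4 and 50.6 in LacZ/+, and 46.5, 51.2 and 50.8 in +/+. Unlike the alpha-like genes, *Alas2* was lowest in library 4.

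**Figure D2:**
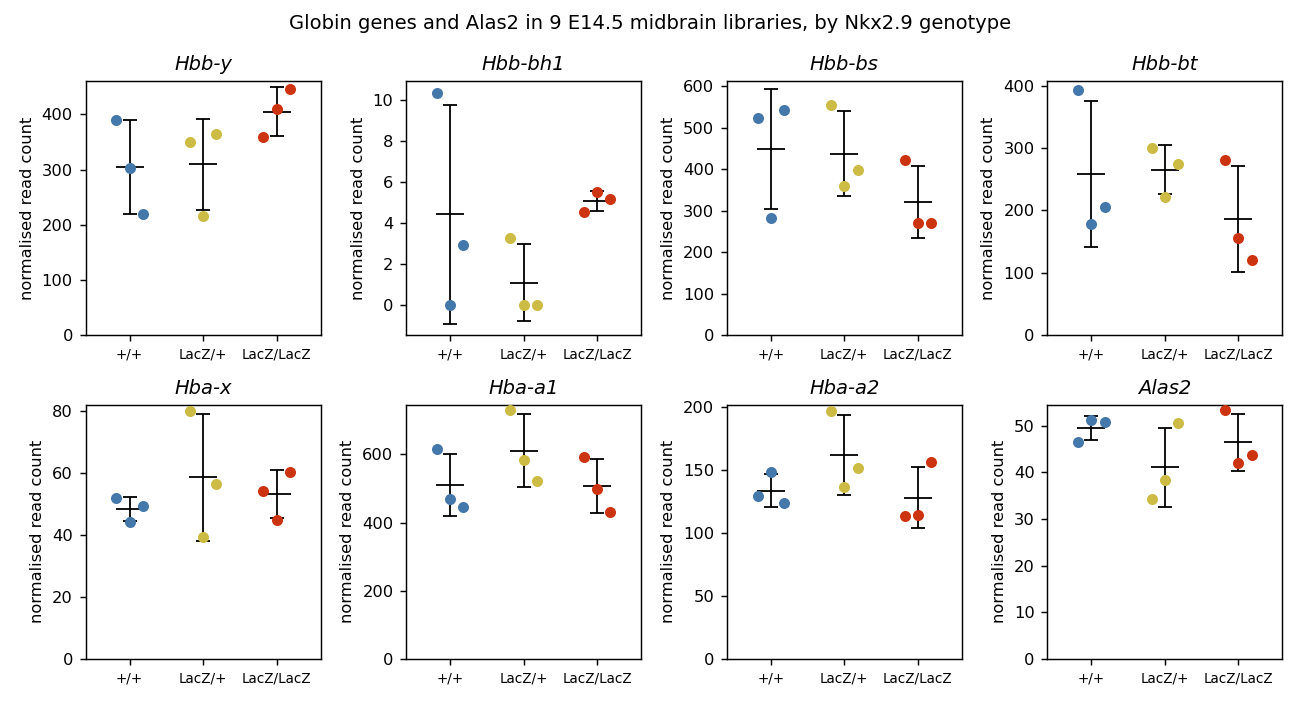
Normalised read counts (y axis, each panel from 0 or just below it) of the 8 genes in the 3 libraries of each labelled genotype (points, in column order), with mean and SD (n = 3, black). The genotypes overlap for every gene other than *Hbb-bh1*, whose 3 libraries labelled LacZ/LacZ hold 6 reads each, above those labelled LacZ/+.

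The first comparison was of the libraries labelled LacZ/LacZ against those labelled +/+, the pair of labels that *Nkx2-9* went against. None of the 7 genes with a mean of at least 5 normalised counts passed an unadjusted p of 0.05 in limma (0 of 7, against 2.6% of the 16993 genes tested), and for none did the values of the genotypes fall apart (0 of 7, against 9.52%). The sign was not the same throughout: 2 were positive and 5 negative, with a median log2 fold change of -0.07 against 0.01 over all genes. *Hbb-y* had a log2 fold change of 0.44 (SE 0.21, 95% interval -0.01 to 0.89), with an unadjusted limma p of 0.053, and was higher under the label LacZ/LacZ in 8 of 9 pairs of libraries. Its exact permutation p was 0.2 (two-sided), where 0.1 is the smallest that 3 against 3 libraries can give. *Hbb-y* is on the list the study chose on this contrast in these libraries, so its p here is not independent evidence, and that list is no support for the sign printed here. Since *Nkx2-9* went against these labels, the sign of 0.44 does not settle in which genotype *Hbb-y* was higher, and the same holds for the other signs of this comparison. The p of *Hbb-y* lay under 0.05 in 11 of 21 alternative settings, with log2 fold changes of 0.23 to 0.64, lowest without library 9 and highest without library 7.

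The adult beta genes had the sign opposite to *Hbb-y*, whichever way the labels stand. *Hbb-bs* had a log2 fold change of -0.46 (SE 0.24, interval -0.96 to 0.05, exact permutation p = 0.2) and *Hbb-bt* of -0.47 (SE 0.29, interval -1.09 to 0.14, exact permutation p = 0.4). Their p lay under 0.05 in 5 and 2 of the 21 alternatives, and both values moved with single libraries. *Hbb-bs* ranged from -0.29 without library 9 and -0.32 without library 7 to -0.67 without library 1 and -0.76 without library 8. *Hbb-bt* ranged from -0.13 without library 7 and -0.21 without library 3 to -0.70 without library 8 and -0.82 without library 1. The alpha-like genes stood nearer to 0, with 0.12 for *Hba-x* (interval -0.42 to 0.67), -0.01 for *Hba-a1* (-0.35 to 0.34) and -0.07 for *Hba-a2* (-0.46 to 0.32), and so did *Alas2* with -0.10 (-0.59 to 0.40). The sign for *Hba-a1* was positive with edgeR, with DESeq2 and with depth as a covariate. *Hbb-bh1* lay under the minimum, and in a fit without one its log2 fold change was 0.77 (interval -1.01 to 2.54).

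The second comparison was of the libraries labelled LacZ/+ against those labelled +/+, where again 0 of 7 genes had an unadjusted limma p under 0.05, against 2.78% of all genes, and 0 of 7 had values that did not overlap, against 6.91%. The log2 fold changes were 0.02 for *Hbb-y* (interval -0.43 to 0.48), -0.01 for *Hbb-bs*, 0.11 for *Hbb-bt*, 0.21 for *Hba-x*, 0.26 for *Hba-a1*, 0.26 for *Hba-a2* and -0.28 for *Alas2*. Their median was 0.11, against -0.01 over all genes. *Hbb-bs* took the opposite sign under upper-quartile scaling and with depth as a covariate, at 0.0061 and 0.011. *Hba-a1* passed p under 0.05 in 3 of 21 alternatives, 1 of them the setting without library 7, with 0.40. Without library 4 the values were -0.038 for *Hba-x*, 0.12 for *Hba-a1*, 0.11 for *Hba-a2* and -0.16 for *Alas2*.

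The third comparison was of the libraries labelled LacZ/LacZ against those labelled LacZ/+, in which 0 of 7 genes had an unadjusted limma p under 0.05, against 2.64% of all genes. For 0 of 7 did the values not overlap, against 8.71%. *Hbb-y* had a log2 fold change of 0.42 (interval -0.03 to 0.87, exact permutation p = 0.2), *Hbb-bs* of -0.45 (-0.96 to 0.06, exact permutation p = 0.3) and *Hbb-bt* of -0.59 (-1.20 to 0.03, exact permutation p = 0.3). The alpha-like genes had -0.09 for *Hba-x*, -0.27 for *Hba-a1* and -0.33 for *Hba-a2*, and *Alas2* had 0.18. The p lay under 0.05 in 8 of 21 alternatives for *Hbb-y*, 5 for *Hbb-bs* and 8 for *Hbb-bt*. Single libraries moved these values too: *Hbb-y* was at 0.18 without library 5, *Hbb-bs* at -0.27 without library 4, and *Hbb-bt* at -0.33 without library 3 and -0.93 without library 1. Without library 4, *Hba-a1* was at -0.13 and *Hba-a2* at -0.18. This comparison shares the LacZ/LacZ libraries with the first, and the LacZ/+ libraries with the second.

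*Hbb-bh1* was the one gene whose values did not overlap in the third comparison, with 18 reads under the label LacZ/LacZ against 2 under LacZ/+. Per counted read that is a ratio of 7.61 (exact 95% interval 1.82 to 67.6, counting error only), and in the limma fit without a minimum the log2 fold change was 1.90 (interval 0.12 to 3.67, unadjusted p = 0.037, adjusted p = 0.963). Against +/+, with 8 reads, the ratios were 2.01 (0.83 to 5.33) for LacZ/LacZ and 0.264 (0.0273 to 1.32) for LacZ/+.

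Over all genes, limma gave 0 genes at an adjusted p under 0.05 in each comparison, with 441, 473 and 449 at an unadjusted p under 0.05. edgeR also gave 0 genes, and DESeq2 gave 0, 1 and 0. The smallest adjusted p of any of the 8 genes, over all comparisons and settings, was 0.585, that of *Hbb-y* in LacZ/LacZ against +/+ without the 2 shallowest libraries (limma).

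**Figure D3:**
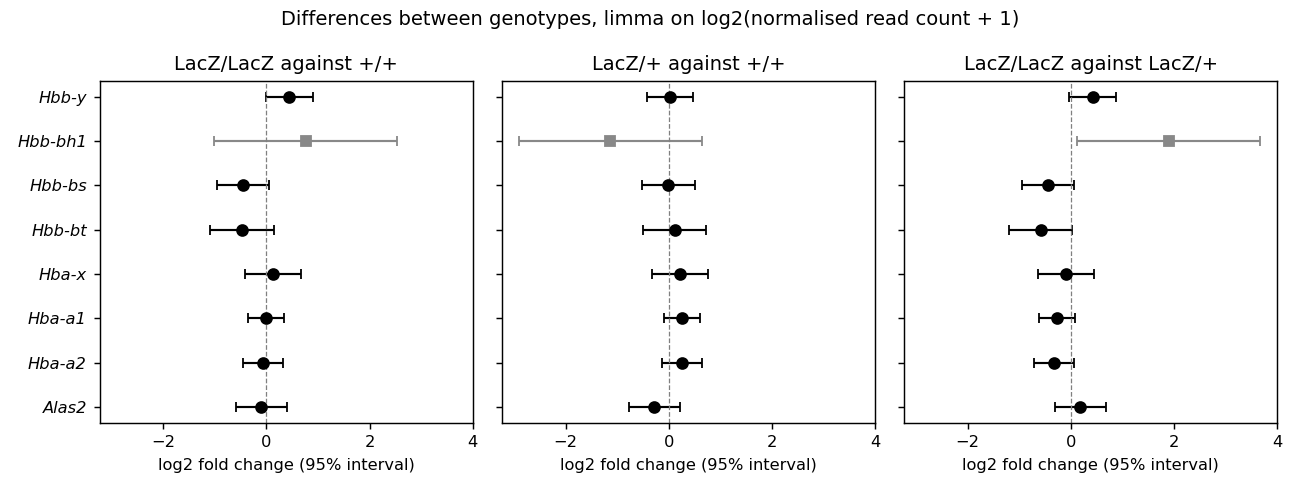
Log2 fold changes with 95% intervals (x axis) of the 8 genes in the 3 comparisons of the labelled genotypes, from limma. Black points are from the fit with the minimum and grey squares (*Hbb-bh1*) from the fit without it; every black interval spans 0.

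A share of reads within a library does not depend on how libraries were scaled. Of the reads on the 4 beta-like genes, the embryonic *Hbb-y* and *Hbb-bh1* took 34.1%, 49.3% and 53.5% in libraries 1, 2 and 3, labelled LacZ/LacZ. They took 29.3%, 27.0% and 35.1% in LacZ/+ and 30.5%, 39.8% and 22.9% in +/+. Libraries 2 and 3 thus stood above all others, with Wilson 95% intervals of 46.1% to 52.5% and 50.4% to 56.6% that cover counting error only, while library 1 lay within the range of the other labelled genotypes. Within +/+, the intervals of library 8 (36.9% to 42.7%) and library 9 (20.7% to 25.3%) did not meet, so the share varied between libraries of 1 labelled genotype by more than counting error.

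The log2 ratio of embryonic to adult beta reads was -0.26 ± 0.61 in LacZ/LacZ, -1.20 ± 0.28 in LacZ/+ and -1.18 ± 0.58 in +/+ (SD, n = 3 each). The difference of 0.92 between LacZ/LacZ and +/+ had an exact permutation p of 0.2, and that of 0.93 between LacZ/LacZ and LacZ/+ also 0.2 (two-sided, the smallest possible being 0.1). In each case the label LacZ/LacZ had the higher value in 8 of 9 pairs of libraries, and these signs rest on labels that *Nkx2-9* went against. LacZ/+ and +/+ differed by -0.02 (exact permutation p = 1). These differences moved with the way the chains were summed, most of all where *Hbb-bh1* with its few reads counted for more. As a mean of the logs of single genes they were 1.07, 1.68 and -0.61 in the same order, and without the gene with the most reads in each sum, which leaves *Hbb-bh1* as the only embryonic gene, they were 1.24, 2.49 and -1.24. Since *Hbb-y* makes up nearly all of the embryonic beta reads, this ratio is not independent of the *Hbb-y* result.

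The alpha cluster did not show the same spread. *Hba-x* took 5.18% to 9.27% of the alpha-like reads, with a median of 7.14%, and the shares were 7.14%, 6.82% and 9.27% in LacZ/LacZ, 7.93%, 5.18% and 7.72% in LacZ/+, and 6.49%, 6.67% and 7.97% in +/+. Their Wilson intervals overlapped apart from those of libraries 3 and 5, with 20 to 72 reads of *Hba-x* behind a share. The log2 ratio of embryonic to adult alpha differed by 0.14 between LacZ/LacZ and +/+ (exact permutation p = 0.5), by 0.18 between LacZ/LacZ and LacZ/+ (p = 0.6 by the same exact test) and by -0.04 between LacZ/+ and +/+ (p = 0.8 by the same exact test). Per kilobase of exon, the ratio of embryonic to adult normalised counts was 0.352 to 1.36 in the beta cluster and 0.0454 to 0.0836 in the alpha cluster, so that the beta ratio was the higher in all 9 libraries, on the reads as counted.

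The balance of the clusters was narrower. The alpha-like genes held 37.7% to 48.8% of the globin reads, lowest in library 7 and highest in library 5, with 41.5% to 43.8% in the 3 libraries labelled LacZ/LacZ. Per kilobase the ratio of alpha to beta was 0.538 to 0.858, with a median of 0.670. The log2 ratio of alpha to beta differed by 0.12 between LacZ/LacZ and +/+ (exact permutation p = 0.5), by 0.25 between LacZ/+ and +/+ (p = 0.3 by the same exact test) and by -0.13 between LacZ/LacZ and LacZ/+ (p = 0.5 by the same exact test). The first of these was negative when the genes were averaged on the log scale, at -0.056, and when the gene with the most reads was left out of each sum, at -0.14.

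Within the adult pairs, *Hbb-bs* took 57.1% to 72.5% of the adult beta reads and *Hba-a1* 73.4% to 83.9% of the adult alpha reads. *Hbb-bs* holds 55.1% of the windows that are particular to one of the 2 adult beta genes, and *Hba-a1* 69.2% of those of the adult alpha genes, and the part of these unequal lengths of unshared sequence in the read shares was not tested.

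**Figure D4:**
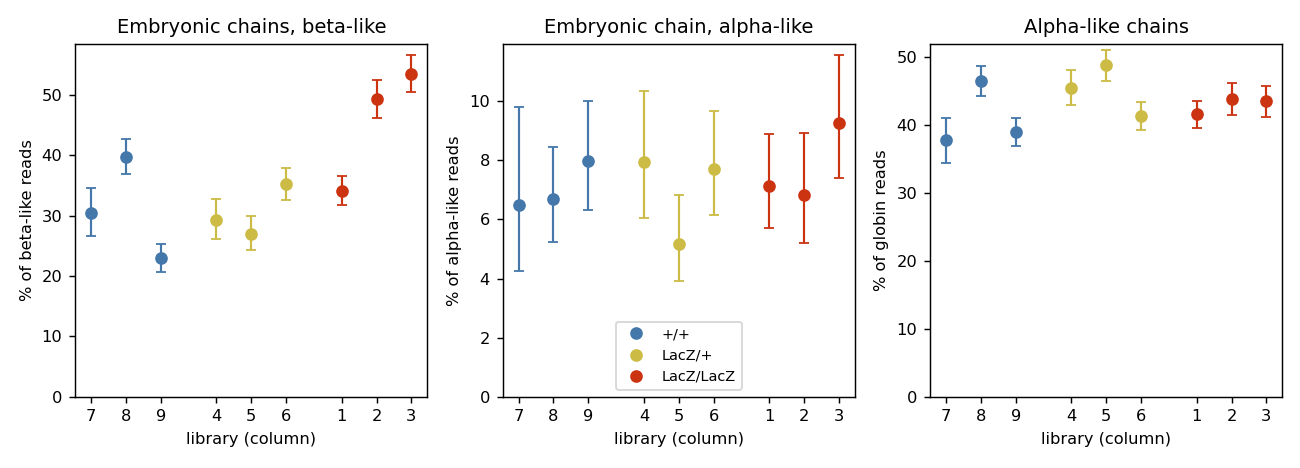
Share of reads (y axes, %, from 0) with Wilson 95% intervals in each library (x axis, column number; colours are labelled genotypes): embryonic chains among beta-like reads, *Hba-x* among alpha-like reads, and alpha-like among all globin reads. Libraries 2 and 3 stand highest in the first panel, at 49.3% and 53.5%, and are within the others' range in the third.

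Summed over a library, the adult beta genes had 508 ± 171 normalised counts under the label LacZ/LacZ, 703 ± 139 in LacZ/+ and 709 ± 230 in +/+, and the adult alpha genes 635 ± 61.4, 773 ± 135 and 644 ± 90.4 (SD, n = 3 each). The embryonic beta genes had 410 ± 43.9, 311 ± 83.3 and 309 ± 89.0. The 7 globins together had 1606 ± 191 in LacZ/LacZ, 1846 ± 337 in LacZ/+ and 1711 ± 358 in +/+. The totals of single libraries overlapped between the labelled genotypes. The highest totals were 2215 in library 4 and 2113 in library 7, the 2 shallowest libraries, and the part of depth in this was not tested. The difference between LacZ/LacZ and +/+ in the log2 ratio of embryonic to adult beta stayed positive without those libraries and in the other 10 alternatives, at 0.63 to 1.26.

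Across the 9 libraries, 6 pairs of sums or genes were related on the log2 scale, and none passed Benjamini-Hochberg adjustment. Adult alpha and adult beta had a Pearson r of 0.64 (exact permutation p = 0.060, adjusted 0.292) and a Spearman rho of 0.58 (exact permutation p = 0.108, adjusted 0.324). Without libraries 4 and 9, the farthest from the median of adult alpha, r was 0.92, and within genotypes (deviations from the genotype means) it was 0.66. *Hbb-y* and *Hbb-bh1* had r = 0.52 (exact permutation p = 0.146, adjusted 0.292) and rho = 0.73 (exact permutation p = 0.034, adjusted 0.203), with few *Hbb-bh1* reads behind it. Without libraries 5 and 9 this r was 0.67.

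*Hbb-y* did not follow the adult beta genes, with r = -0.22 (exact permutation p = 0.561, adjusted 0.561) and rho = -0.30 (exact permutation p = 0.437, adjusted 0.655), and the sign turned within genotypes, at 0.14. *Hba-x* and adult alpha had r = 0.55 (exact permutation p = 0.127, adjusted 0.292) and rho = 0.18 (exact permutation p = 0.644, adjusted 0.772), which rested on libraries 4 and 5, since without them r was 0.20. Embryonic beta and *Hba-x* had r = 0.47 (exact permutation p = 0.205, adjusted 0.307) and rho = 0.48 (exact permutation p = 0.194, adjusted 0.388), and without libraries 5 and 9 r was 0.10. The libraries share scaling and input tissue, and these relations are descriptions.

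**Figure D5:**
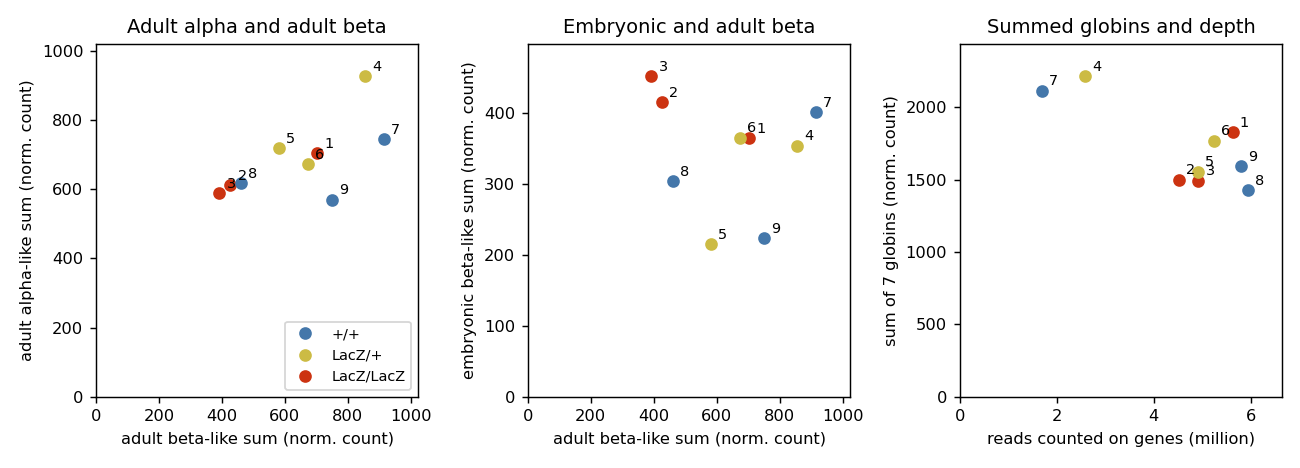
Summed normalised counts per library (points numbered by column, coloured by labelled genotype; all axes from 0): adult alpha against adult beta, embryonic beta against adult beta, and the 7 globins against reads counted on genes. Libraries 2, 3 and 8 are low in adult beta, and the shallow libraries 4 and 7 have the highest globin sums, 2215 and 2113.

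*Alas2* was set against the globins as an erythroid gene that makes haem and not a chain. Its log2 ratio to the summed globins was -5.11 ± 0.04 under the label LacZ/LacZ, -5.49 ± 0.46 under LacZ/+ and -5.09 ± 0.37 under +/+ (SD, n = 3 each), from -6.02 in library 4 to -4.80 in library 8. The 3 libraries labelled LacZ/LacZ were nearly alike, and the differences were -0.02 against +/+ (exact permutation p = 1), 0.38 against LacZ/+ (exact permutation p = 0.2) and -0.40 for LacZ/+ against +/+ (exact permutation p = 0.4). The differences that involve LacZ/+ rested largely on library 4, and without it they were 0.12 and -0.14. The second was -0.61 without library 7 and -0.26 without library 8. *Alas2* had 18 to 73 reads in a library. *Alas2* and the summed adult globins had r = -0.24 (exact permutation p = 0.526, adjusted 0.561) and rho = 0.00 (exact permutation p = 1, adjusted 1.0), and without libraries 4 and 5 r was 0.47.

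The rest of the globin family had few reads apart from *Cygb*. Of 9 other family genes in the table, *Hbb-bh2* and *Hbb-bh3* had no read, and 2 passed the minimum, *Cygb* (cytoglobin) at 54.6 to 90.5 normalised counts and *Ngb* (neuroglobin, of neurons) at 2.21 to 12.9. None passed p under 0.05 in any comparison (limma).

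Genes for haem synthesis and its iron supply, other than *Alas2*, were all expressed: 18 of 18 passed the minimum and 0 of 18 had an unadjusted limma p under 0.05 in any comparison. The highest included *Tfrc*, the transferrin receptor, at 272 to 469 normalised counts and the mitochondrial transporter *Abcb10* at 146 to 200.1. These genes serve haem and iron use in many cell types. Their median log2 fold change in LacZ/LacZ against +/+ as labelled was 0.06, against 0.01 over all genes.

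Erythroid regulators gave a mixed picture. Of 14, 10 passed the minimum, the highest being *Ldb1* at 685 to 934, *Bcl11a*, a repressor of embryonic and fetal globin genes that neurons also express, at 512 to 729, and *Tal1* at 396 to 488, which also acts in midbrain neurons. The defining erythroid factors were at or near 0: *Gfi1b* had no read, *Gata1* 5 reads and *Klf1* 12 reads over all 9 libraries. *Bcl11a* had a log2 fold change of 0.24 in LacZ/LacZ against +/+ as labelled (limma, adjusted p = 1.00), and this gene was singled out after its values were seen. *Zbtb7a*, another repressor of fetal globin genes, was the 1 regulator of 10 with an unadjusted limma p under 0.05, with a log2 fold change of -0.39 in LacZ/+ against +/+ (SE 0.17), where 2.78% of all genes had one. Its adjusted p was 1.00, and 1 call in 3 comparisons of 10 genes is near that background.

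Of 25 genes for the red cell membrane, skeleton and related proteins, 13 passed the minimum and 0 of 13 had an unadjusted limma p under 0.05 in any comparison. The highest were *Add2* (a membrane skeleton protein) at 1752 to 2174, *Epb41* (protein 4.1) at 1077 to 1355 and *Bpgm* (bisphosphoglycerate mutase) at 264 to 298 normalised counts. Neurons also express *Add2* and *Epb41*. *Rhag*, *Car1* and *Icam4* had no read.

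Markers of other blood and vessel cells were summed over each library. The 14 leukocyte markers summed to 107 to 124 normalised counts in LacZ/LacZ, 114 to 160 in LacZ/+ and 107 to 163 in +/+, and 0 of the 6 over the minimum passed p under 0.05 in limma. The 9 platelet markers summed to 88.5 to 111, 81.6 to 139 and 80.2 to 123, with 0 of 3 passing. The 14 endothelial markers summed to 1141 to 1280, 1128 to 1387 and 1156 to 1255, and 1 of 14 passed, *Slco1c1*, in LacZ/+ against +/+, where 2.78% of all genes did. This count over 3 comparisons is also near the background. All 3 sums overlapped between genotypes, and their part in the globin values was not tested. Of 10 midbrain markers, 3 had an unadjusted limma p under 0.05 in LacZ/LacZ against +/+ as labelled, against 2.6% of all genes, namely *En1* (-0.60 on the log2 scale), *Pax7* (-0.63) and *Pitx3* (-0.71). Of these markers, *En1*, *En2* and *Pax7* are on the list the study chose on this contrast in these libraries. The count is therefore not independent evidence. The median of the 10 was -0.06, against 0.01 over all genes, with *Th* at 0.25 and *Foxa2* at 0.17. The list summed to 3194 to 3987 normalised counts in LacZ/LacZ and 3798 to 3967 in +/+. Of 6 telencephalic markers, 4 were over the minimum and 1 of these, *Neurod6*, had a p under the same threshold, with a log2 fold change of 0.72. These signs too rest on labels that are unsettled, and no direction is drawn from them for any marker. Their part in the globin values was not tested.

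Outside the 8 genes, 16986 genes over the minimum were ranked by Pearson r with the summed globins on the log2 scale over the 9 libraries, as a description. Nearest to the summed adult globins were *1810014B01Rik* and *Tubb2a* (r = 0.98 each), *Gna12*, *Polr2g* and *Stk16* (each 0.96). Nearest to the summed embryonic globins were *Gpatch2l* (r = 0.94), *Irf3* (0.93), *Coa4*, *Gm12966* and *Tor1b* (each 0.92). The top of so many genes over 9 libraries is high in any such ranking, and no gene of the erythroid lists was among these 10.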

How the data were processed

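RNA-seq was carried out on 9 libraries of dissected E14.5 midbrain, 3 for each labelled *Nkx2.9* genotype. The authors aligned reads to mm10 with HISAT2, counted them on genes with featureCounts and deposited a table of gene counts divided by DESeq2 size factors, a normalised signal and not raw counts; versions, strand setting and annotation release were not given in the sources used here. The labels describe an mRNA library protocol on trizol RNA and the study's methods a column kit with ribosomal RNA depletion. Deposited tables of the authors' own DESeq2 comparisons (fold changes and p-values) were not used.

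All 210686 values above 0 were whole multiples of the value of 1 read in their library (100%, within 0.1 of a read), so reads were recovered. Identifiers were matched to GENCODE M21 (51633 of 51912). Genes with a mean normalised count of at least 5 were tested in all 9 libraries with limma 3.58.1 (R 4.3.3) with a mean-variance trend on log2(normalised count + 1), a scale that understates changes of low genes, with Benjamini-Hochberg adjustment over all 16993 genes. This replaced a count test because the values are scaled; edgeR 4.0.16 and DESeq2 1.42.0 on recovered reads were alternatives. On simulated data with the same means, the script was tested with 200 changed genes. Ratios and correlations used exact permutation tests (scipy 1.17.1) and shares Wilson 95% intervals, which cover counting error only. Genes with no read allow up to 3 reads per library.

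Genes named in the text are the 8 genes, those of the globin and erythroid lists under p 0.05, the 3 most abundant of each erythroid list, list members at 0, the 5 most correlated with each globin sum, and the check genes; other cell types were given as sums, and some genes under this rule are not reported here. These genes and lists were chosen with earlier results of these data known. How litters fell over the libraries was not given, so p-values measure only the spread between these libraries. Alternatives were other pseudocounts, minimums, scalings and tests, depth as a covariate, other ways of summing chains and leaving out each library; leaving out the 2 shallowest libraries together was added after the data were seen.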

Additional observations from a re-analysis of the deposited data

How the results depend on the processing

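No paired analysis was possible because the table's columns carry no replicate number. All comparisons are of the genotypes as labelled, and no alternative bears on whether the labels are right. The 0 of 7 genes at an unadjusted p under 0.05 became, in LacZ/LacZ against +/+, 1 with a pseudocount of 5, with only the genotypes compared, with edgeR, with depth as a covariate and without the 2 shallowest libraries, and 2 with no minimum and with DESeq2 (0 to 2 leaving out 1 library). In LacZ/+ against +/+ it became 1 with depth as a covariate and without the 2 shallowest (0 to 1 leaving out 1 library). In LacZ/LacZ against LacZ/+ it became 4 with no minimum (8 genes tested), 3 with only the genotypes compared, 1 with upper-quartile scaling and with depth as a covariate, and 2 without the 2 shallowest (0 to 3 leaving out 1 library). In the first comparison the count was 2 without library 1, 4 or 8 and 1 without 5, 6 or 7, in the second 1 without 7, and in the third 3 without 1 or 5, 2 without 7 or 8 and 1 without 3, 4, 6 or 9. The cause of these moves was not tested.

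Over all genes, calls at an unadjusted p under 0.05 in the 3 comparisons were 1135, 1137 and 1132 with no minimum (more genes tested), 263, 242 and 288 with a minimum of 20 (fewer genes tested), and 705, 852 and 972 without the 2 shallowest libraries. For LacZ/+ against +/+ they were also 283 with only the genotypes compared, 264 with DESeq2 and 790 with depth as a covariate. Leaving out 1 library gave 283 to 835, 376 to 936 and 293 to 741. Adjusted p under 0.05 was met by 6 genes, no globin among them, in LacZ/LacZ against +/+ without the 2 shallowest, and by 1 gene in LacZ/+ against +/+ with DESeq2.

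Signs turned for values near 0. Without the 2 shallowest libraries, the embryonic to adult beta ratio in LacZ/+ against +/+ was 0.015, *Hba-a1* in LacZ/LacZ against +/+ 0.13 and *Hba-x* in LacZ/LacZ against LacZ/+ 0.16. *Hba-a1* in LacZ/LacZ against +/+ was 0.016 with edgeR, 0.0035 with DESeq2 and 0.087 with depth as a covariate, and *Hbb-bs* in LacZ/+ against +/+ 0.0061 with upper-quartile scaling and 0.011 with depth. Alpha to beta in LacZ/LacZ against +/+ was -0.056 as a mean of logs and -0.14 without the gene with the most reads, where *Alas2* to globins was 0.010. The correlation of *Hbb-y* with adult beta was 0.14 within genotypes, and of *Alas2* with adult globins 0.47 without the 2 farthest libraries. Leaving out 1 library, the log2 ratios ranged from -0.30 to 0.27 (embryonic to adult beta, LacZ/+ against +/+), -0.0079 to 0.24, -0.16 to 0.17 and -0.029 to 0.30 (embryonic to adult alpha, in the order of the comparisons) and -0.23 to 0.12 (*Alas2* to globins, LacZ/LacZ against +/+). Log2 fold changes ranged from -0.12 to 0.13 for *Hba-a1* and -0.22 to 0.0044 for *Hba-a2* (LacZ/LacZ against +/+), -0.19 to 0.27 for *Hbb-y*, -0.31 to 0.16 for *Hbb-bs*, -0.11 to 0.46 for *Hbb-bt* and -0.038 to 0.46 for *Hba-x* (LacZ/+ against +/+), and -0.34 to 0.16 for *Hba-x* (LacZ/LacZ against LacZ/+). *Hbb-y* kept its sign in LacZ/LacZ against both other genotypes in all 21 alternatives. Depth limits *Hbb-bh1*, *Alas2* and *Hba-x*, which had at most 6, 73 and 72 reads in a library.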
